A study of Mus musculus with 6 samples.

Results

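The genes described here encode the proteins of the cytosolic ribosome. They were taken from the deposited gene table by name and biotype, as protein-coding genes named Rpl or Rps with a number and at most 1 letter, together with Rplp0, Rplp1, Rplp2, Rpsa, Rack1 and Fau. This gave 83 genes of 49548 in the table, of which 33 belong to the small (40S) and 50 to the large (60S) subunit. The genes were measured by 3′ mRNA sequencing (QuantSeq) in fibroblasts sorted from AOM/DSS-induced colon tumors of C57/BL6 mice that carried Col6a1-cre and the Rosa26-mTmG reporter, in 2 groups of 3 libraries. AOM/DSS is azoxymethane followed by dextran sodium sulfate, a model of colitis-associated cancer. In these mice cells express Tomato until Cre recombines the reporter, and GFP afterwards, so the GFP+ libraries are the Col6a1+ cancer-associated fibroblasts (CAFs) and the Tomato+ libraries the Col6a1- CAFs. Both groups had the same genotype, strain and tumor treatment, both came from pooled tumors of several mice and both were negative for CD45, EpCAM, CD31 and Ter119. The labels give no age. The Cre is driven by Col6a1 sequences, and in the gut its activity is found for the most part in PDGFRa-high fibroblasts and around vessels. The comparison is thus between what this Cre labels and all other cells of the lineage-negative sort.

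A ribosome joins a small subunit, which reads the mRNA, to a large subunit, which forms the peptide bond. Each carries many proteins that are made in matched amounts, and the mRNAs of nearly all of them begin with a terminal oligopyrimidine (TOP) stretch, a cytidine at the cap followed by a run of pyrimidines, through which mTOR and LARP1 set their translation. Ribosome synthesis is a large cost of cell growth and is raised in dividing cells by MYC and mTOR.

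Ribosomal protein transcripts made up a smaller share of all normalized counts in Col6a1+ than in Col6a1- CAFs. The share was 2.67, 2.97 and 3.00% in Col6a1+ replicates 1 to 3, and 3.59, 3.57 and 3.72% in Col6a1- replicates 1 to 3. The groups did not overlap, and their means were 2.88 ± 0.181% and 3.63 ± 0.0836% (SD, n = 3 each). The share was thus 20.6% lower in Col6a1+ CAFs, a difference of -0.746 percentage points. A 2-sided exact permutation test over libraries gave p = 0.1, the smallest that 3 against 3 libraries allow, so this design cannot bring the share under 0.05. Each same-numbered pair of libraries differed in the same direction, by -0.919, -0.591 and -0.727 points. The labels do not say that same-numbered libraries share a tumor pool, so here and below the pairing is an assumption. Because these are bulk libraries, fewer cells of a type with high ribosomal protein mRNA and less of that mRNA per cell cannot be told apart.

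Each subunit had a lower share. Small subunit genes held 1.14, 1.40 and 1.39% of counts in Col6a1+ CAFs and 1.64, 1.67 and 1.85% in Col6a1- CAFs, 23.8% lower on average. Large subunit genes held 1.53, 1.57 and 1.60% against 1.95, 1.90 and 1.87%, 17.7% lower. Neither set of 3 overlapped with the other group (exact permutation p = 0.1 for each subunit). The ratio of small to large subunit counts was 0.835 ± 0.0803 in Col6a1+ and 0.904 ± 0.0734 in Col6a1- CAFs (SD, n = 3 each), and the libraries overlapped (exact permutation p = 0.5).

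**Figure D1:**
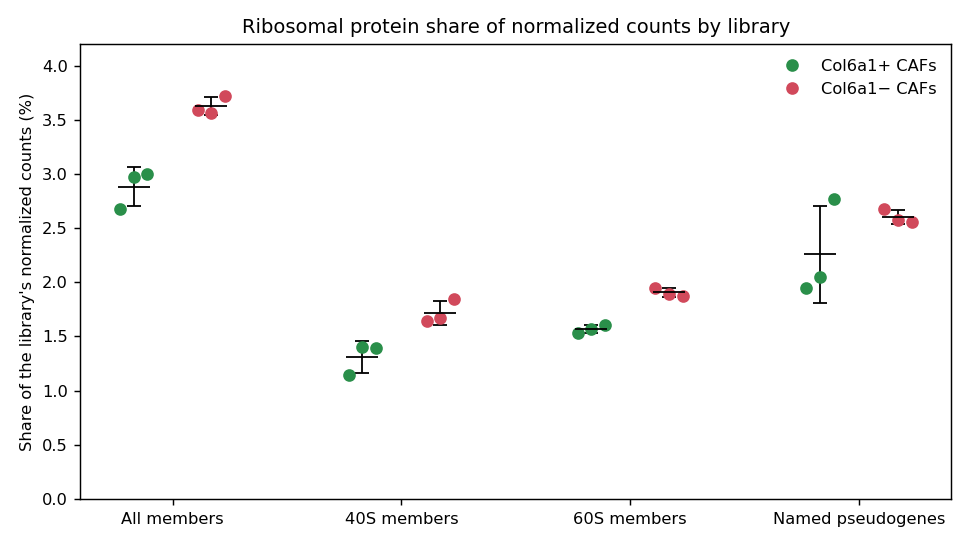
Percent of each library's normalized counts on all ribosomal protein genes, on 40S and 60S genes, and on rows named and annotated as ribosomal protein pseudogenes, with 1 point per library and the mean ± SD (n = 3) per group. The 3 Col6a1+ libraries lie below the 3 Col6a1- libraries for all genes and for each subunit, and overlap with them for the pseudogenes.

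No single ribosomal protein gene passed the test across all genes. Of the 83 genes, 81 had a sum of 1 or more normalized counts and were tested with limma on log2(normalized count + 1), with Benjamini-Hochberg adjustment over 26402 genes. At an adjusted p under 0.05, 0 of the 81 were called higher, where 2.66% of all tested genes were, and 0 were called lower, where 1.96% were (4.62% in either direction). At an unadjusted p under 0.05, 6 were lower (Rps19, Rpl7, Rps2, Rps10, Rpl17 and Rpl11) and 0 higher. The 6 are 7.41% of the 81, against 9.4% of all tested genes lower and 6.63% higher at that threshold. The limma-voom fit also called 0, with 18 lower at an unadjusted p under 0.05 (11.8% of all tested genes). A fit with a block for the replicate number called 0 ribosomal protein genes, with 18 lower at an unadjusted p under 0.05 (9.72% of all genes). With this filter for low genes it called 0 genes of the whole table, but it did call genes over those averaging 10 or more.

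The fold changes of these genes were small and mostly of 1 sign. A log2 fold change, Col6a1+ over Col6a1-, was below 0 for 66 of the 81 genes (81.5%), where 58.8% of all tested genes and 54.2% of those averaging 100 or more normalized counts were below 0. It was below 0 for 68 genes with library size as the only scaling, for 64 with upper quartile scaling and for 64 without Col6a1+ replicate 1, a library described below. The median was -0.34 over the 81 genes, -0.37 for the small and -0.32 for the large subunit, beside -0.27 for all tested genes and -0.08 for all genes averaging 100 or more. The median of the table therefore depends on how low genes are treated, and the ribosomal protein median does not, since 79 of the 83 genes average 100 or more and their median is also -0.34.

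The 3 Col6a1+ libraries lay below the 3 Col6a1- libraries without overlap for 20 of the 81 genes (24.7%), where 11.6% of all tested genes and 19% of those averaging 100 or more did. They lay above without overlap for Rpl23a and Rpl39, 2 genes (2.47%), where 7.91% of all tested genes and 18.1% of those averaging 100 or more did. Within same-numbered pairs, 47 genes (58%) were lower in Col6a1+ CAFs in all 3 pairs, against 18.8% of all tested genes and 31.1% of those averaging 100 or more. In all 3 pairs 2 genes were higher, where 12.3% of all tested genes and 26.3% of those averaging 100 or more were. Over the 80 genes that averaged 10 or more normalized counts, the median difference was -0.39, -0.29 and -0.36 on the log2 scale in pairs 1 to 3, with 68, 68 and 57 of the 80 genes lower. Over all genes of that level it was -0.16, -0.07 and -0.08, with 54.3, 52.7 and 52.4% lower.

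The fold changes of these genes lay in a narrow range. Their SD was 0.35 on the log2 scale over the 80 genes averaging 10 or more, near the median SE of a single gene (0.30), whereas it was 1.47 over all genes of that level. The 95% interval of the log2 fold change lay within 1 unit of 0 for 34 genes (42%), which bounds their difference to less than 2-fold in either direction, where this held for 4.44% of all tested genes and 19.5% of those averaging 100 or more. Since the spread among the genes is close to the SE of 1 gene, their order by fold change is loose.

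**Figure D2:**
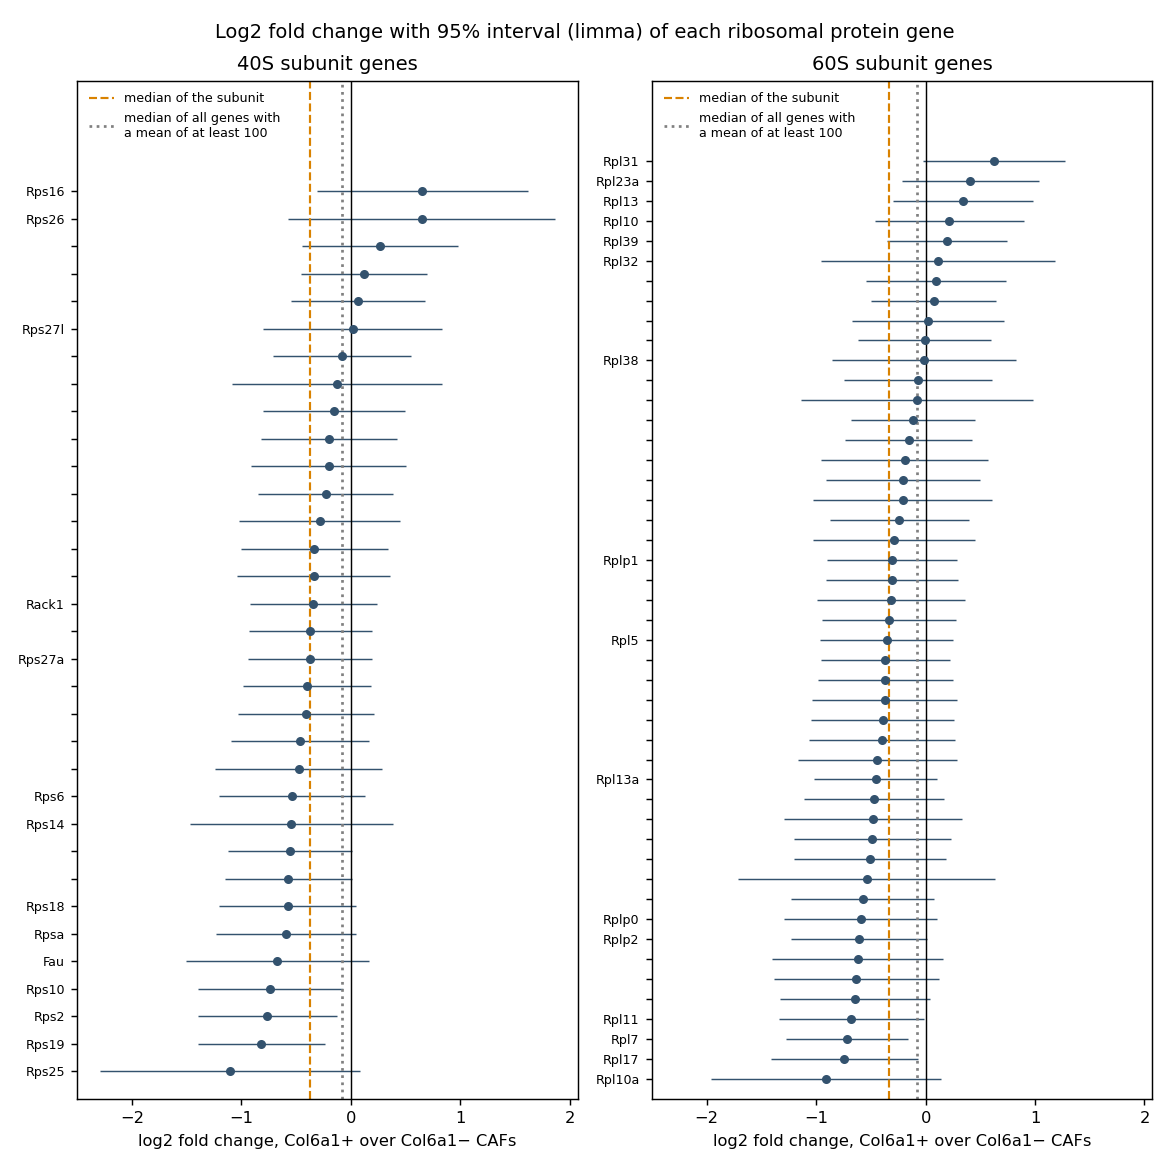
Log2 fold change, Col6a1+ over Col6a1- CAFs, of each ribosomal protein gene averaging 10 or more normalized counts (points), with its 95% interval from limma (lines), for 33 small and 47 large subunit genes, with names only for genes described in the text. The points center to the left of 0 and of the median of all genes averaging 100 or more (-0.08, dotted), and most intervals cross 0.

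The genes share features of their start that the choice by name did not use. Of the 80 genes averaging 10 or more normalized counts, 59 had an entry among 32851 RefSeq promoters of the build GRCm38.p6 (300 bases each, 250 before the annotated start and 50 from it on). A cytidine at the annotated start followed by at least 4 more pyrimidines, the form of a TOP mRNA, was found in 14 of the 59 (23.7%) and in 2.51% of all promoters. A run that begins with C and holds at least 8 pyrimidines lay within 25 bases of the start in 50.8% of the 59 and in 15.5% of all promoters. CCGGAAG, an ETS family motif, was present on either strand in 39.0% of the 59 against 8.86% of all promoters, GGGCGG (an Sp1 motif) in 59.3% against 35.7%, AAGATGGC (a YY1 motif) in 8.47% against 2.75%, and TATAAA in 8.47% against 13.6%. These are matches of letters, not measured starts or bound sites.

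The windows below run from 70 bases before to 20 bases from the annotated start, 5′ to 3′ on the gene's strand, from RefSeq promoters (GRCm38.p6), with the longest run of pyrimidines that begins with C near the start in capitals. The first 6 have such a run at the start base and are shown to let the TOP form be read. The last 2, Rps19 and Rps25, are among the 5 genes with the lowest fold change and have none at the annotated start base.
Fau (chr19:6057877-6057966, plus strand): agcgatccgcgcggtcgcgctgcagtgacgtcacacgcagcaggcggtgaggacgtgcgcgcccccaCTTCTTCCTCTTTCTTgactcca
Rack1 (chr11:48800290-48800379, plus strand): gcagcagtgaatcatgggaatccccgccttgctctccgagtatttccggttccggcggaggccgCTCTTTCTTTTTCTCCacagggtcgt
Rps6 (chr4:86857348-86857437, minus strand): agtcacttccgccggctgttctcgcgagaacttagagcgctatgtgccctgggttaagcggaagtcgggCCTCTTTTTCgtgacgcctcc
Rps18 (chr17:33955646-33955735, minus strand): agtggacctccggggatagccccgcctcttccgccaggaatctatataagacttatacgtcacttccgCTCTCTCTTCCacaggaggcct
Rpl38 (chr11:114668510-114668599, plus strand): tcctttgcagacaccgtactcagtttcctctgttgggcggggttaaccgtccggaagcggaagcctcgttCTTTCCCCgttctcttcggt
Rplp2 (chr7:141447581-141447670, plus strand): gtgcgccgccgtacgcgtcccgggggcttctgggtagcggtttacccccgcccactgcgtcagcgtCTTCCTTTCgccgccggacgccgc
Rps19 (chr7:24884522-24884611, plus strand): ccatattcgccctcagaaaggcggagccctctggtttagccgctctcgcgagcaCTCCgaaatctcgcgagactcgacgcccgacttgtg
Rps25 (chr9:44407644-44407733, plus strand): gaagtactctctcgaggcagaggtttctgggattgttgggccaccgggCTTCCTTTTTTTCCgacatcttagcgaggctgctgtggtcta

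The annotated start lay within 25 bases of the gene's 5′ end in the deposited table for 30 of the 59 genes, and farther away for the rest. In the 8 windows shown it lay 28 (Rack1) to 575 (Rps25) bases from that end, with 336 for Rps18, 281 for Rplp2 and 221 for Rps19. The start used in these cells was not measured, and Rps25 has a run that begins 22 bases upstream of the annotated one. The 14 genes with the TOP form at the annotated start had a median log2 fold change of -0.41, with 13 below 0, and the other 45 matched genes one of -0.37, with 36 below 0. The difference between these medians was not tested.

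Among small subunit genes, Rps19, whose loss in people causes Diamond-Blackfan anemia and which is needed to mature the small subunit RNA, had the smallest p. It had 518, 423 and 406 normalized counts in Col6a1+ replicates 1 to 3 and 837, 774 and 756 in Col6a1- replicates 1 to 3. Every Col6a1+ library lay below every Col6a1- library. Its log2 fold change was -0.82 with an SE of 0.26 (limma, adjusted p = 0.122), its adjusted p with the replicate block was 0.132, and with the filter raised to an average of 100 normalized counts, a setting chosen after seeing the data, it was the 1 member called (adjusted p = 0.0487). Over all alternatives its adjusted p lay between 0.0487 and 0.279.

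Rps2, which sits at the mRNA entry channel, had 464, 602 and 610 normalized counts in Col6a1+ and 741, 1157 and 976 in Col6a1- CAFs. The groups did not overlap, with a log2 fold change of -0.76, an SE of 0.29 and an adjusted p of 0.194 (limma). Rps10, also near the mRNA entry, had 646, 1070 and 694 against 1051, 1403 and 1512, so that 1 Col6a1+ library passed the lowest Col6a1- library. In all, 10 small subunit genes were lower without overlap, among them also Rpsa, Rps4x, Rps9, Rps18, Rps23 and Rps27a. They are 30.3% of the 33 genes, where 11.6% of all tested genes and 19% of those averaging 100 or more did so.

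Among large subunit genes, Rpl7, a surface protein of the subunit, had 1086, 1281 and 1225 normalized counts in Col6a1+ and 1994, 1757 and 2166 in Col6a1- CAFs. The groups were well apart, with a log2 fold change of -0.72, an SE of 0.25 and an adjusted p of 0.165 (limma). Rpl17, which lines the peptide exit tunnel, had 395, 254 and 242 against 458, 462 and 543, also without overlap. Its log2 fold change was -0.75 (SE 0.30, limma adjusted p = 0.244). Rpl3, Rpl9, Rpl11, Rpl13a, Rpl28, Rpl36, Rpl37a and Rplp2 were the other large subunit genes lower without overlap, 10 in all for this subunit. They are 20.8% of the 48 tested, near the 19% of all genes averaging 100 or more (11.6% of all tested genes).

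Rpl5 and Rpl11 travel together with a small ribosomal RNA and bind the p53 regulator MDM2 when ribosome assembly is disturbed. Rpl11 had 1606, 1295 and 901 normalized counts in Col6a1+ CAFs and 2417, 1814 and 1752 in Col6a1- CAFs, with no overlap and a log2 fold change of -0.68 (SE 0.30, limma adjusted p = 0.3). Rpl5 had 932, 986 and 1326 against 1599, 1192 and 1343, with overlap, and a log2 fold change of -0.36 (SE 0.27). Each was lower in Col6a1+ CAFs in all 3 pairs.

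The stalk of the large subunit, which recruits translation factors, is made of Rplp0, Rplp1 and Rplp2. Rplp2 had 1386, 1739 and 1442 normalized counts in Col6a1+ and 1876, 2161 and 3038 in Col6a1- CAFs, without overlap (log2 fold change -0.61, SE 0.28). Rplp1 had 3054, 3851 and 3790 against 3808, 5138 and 4298, with the highest Col6a1+ library just above the lowest Col6a1- library. Rplp0, a common reference gene, had 518, 821 and 1073 against 1071, 1309 and 1118, so that the highest Col6a1+ library lay just above the lowest Col6a1- library. All 3 stalk genes were lower in Col6a1+ CAFs in every pair, and none passed the test (limma adjusted p from 0.326 for Rplp2 to 0.621 for Rplp1).

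Several ribosomal proteins have roles beside translation or unusual precursors. Rpsa, also known as a laminin receptor, had 1190, 1638 and 1556 normalized counts in Col6a1+ and 1699, 2838 and 2155 in Col6a1- CAFs, without overlap (log2 fold change -0.59, SE 0.29). Rack1, a scaffold for protein kinase C on the small subunit, had 1034, 1273 and 1157 against 1546, 1641 and 1224, with overlap (-0.34, SE 0.26). Both were lower in Col6a1+ CAFs in all 3 pairs, and neither passed the test (limma adjusted p = 0.357 and 0.597).

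Rps27a and Fau are made as fusions, with ubiquitin and with a ubiquitin-like protein. Rps27a had 2246, 2122 and 2114 normalized counts in Col6a1+ CAFs and 2796, 3208 and 2443 in Col6a1- CAFs. The groups did not overlap, with a log2 fold change of -0.37 (SE 0.25, limma adjusted p = 0.533). Fau had 152, 297 and 205 against 220, 403 and 426, with overlap (-0.67, SE 0.38).

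Rps6, the substrate of S6 kinase that is used as a readout of mTOR activity at the protein level, had 570, 392 and 351 normalized counts in Col6a1+ CAFs and 622, 523 and 741 in Col6a1- CAFs. The highest Col6a1+ library passed the lowest Col6a1- library, and the log2 fold change was -0.54 (SE 0.30, limma adjusted p = 0.434). Rpl13a, which can leave the ribosome to repress inflammatory mRNAs and serves as a reference gene, had 1028, 1199 and 1048 against 1318, 1586 and 1595, without overlap (-0.46, SE 0.25). Rps18, another reference gene, had 587, 706 and 680 against 789, 922 and 1289, again without overlap (-0.58, SE 0.28). Thus 3 genes used as references in expression assays, Rplp0, Rpl13a and Rps18, each had a lower mean in Col6a1+ CAFs, with limma adjusted p of 0.406, 0.434 and 0.358.

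Rpl10, one of the last proteins to join the large subunit, and Rpl38, known for its part in the translation of Hox mRNAs, went with neither direction. Rpl10 had 729, 1324 and 1354 normalized counts in Col6a1+ and 1025, 862 and 945 in Col6a1- CAFs, with Col6a1+ replicate 1 below and the other two above all Col6a1- libraries. Rpl38 had 103, 169 and 214 against 126, 196 and 156, fully interleaved. Their log2 fold changes were 0.22 (SE 0.31) and -0.02 (SE 0.38), the latter above 0 with upper quartile scaling.

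Of the 5 genes with the highest fold change, Rps16 and Rps26 had 1 high library and are described below, and the other three are large subunit genes. Rpl31, near the exit tunnel, had 875, 627 and 974 normalized counts in Col6a1+ and 529, 635 and 435 in Col6a1- CAFs. Col6a1+ replicate 2 fell within the Col6a1- range, and the log2 fold change was 0.62 (SE 0.29, limma adjusted p = 0.333). Rpl23a, a docking site for factors at the exit tunnel, had 701, 782 and 1132 against 684, 613 and 631, without overlap although its lowest Col6a1+ library lay close to the highest Col6a1- library (0.41, SE 0.28, limma adjusted p = 0.538).

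Rpl39, a small protein in the wall of the exit tunnel, was the other gene above without overlap, with 1687, 1957 and 2015 normalized counts against 1626, 1656 and 1655 (log2 fold change 0.19, SE 0.25). Its 3 Col6a1- libraries lay close together. Rpl13 had 4625, 2739 and 4220 against 2794, 3195 and 2940, with Col6a1+ replicate 2 the lowest of all 6 (0.34, SE 0.29).

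**Figure D3:**
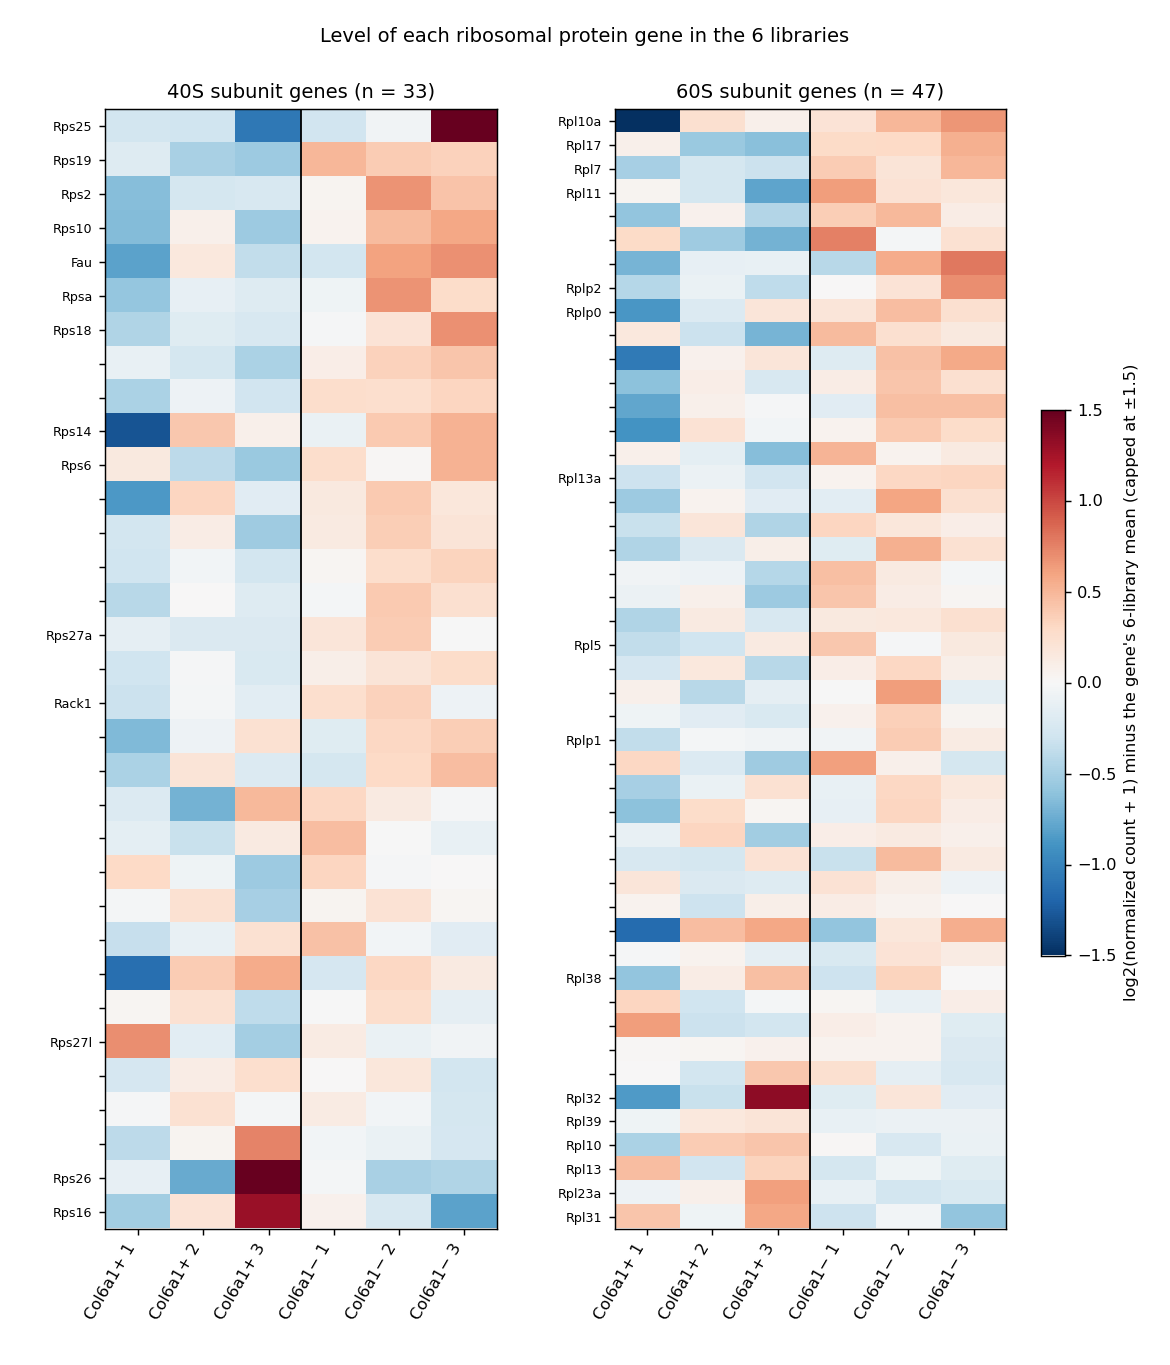
Level of each ribosomal protein gene averaging 10 or more normalized counts (rows, sorted by log2 fold change within each subunit) in the 6 libraries (columns), as log2(normalized count + 1) minus the gene's mean over the 6 libraries, with colors capped at 1.5 either way and names only for genes described in the text. Blue cells predominate in the 3 Col6a1+ columns and red cells in the 3 Col6a1- columns, and single dark cells mark genes with 1 library far from the rest.

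Some of the largest fold changes rested on 1 library. Rps25, with the lowest log2 fold change (-1.10, SE 0.54), had 2066, 2028 and 1185 normalized counts in Col6a1+ CAFs and 2048, 2413 and 9989 in Col6a1- CAFs. Without Col6a1- replicate 3 its log2 fold change was -0.38. Rps26, at 0.65 (SE 0.55), had 801, 517 and 3144 against 852, 625 and 638, and -0.12 without Col6a1+ replicate 3.

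Rps16 had 861, 1423 and 3035 normalized counts in Col6a1+ and 1293, 1044 and 709 in Col6a1- CAFs, and its log2 fold change of 0.65 (SE 0.44) was 0.17 without Col6a1+ replicate 3. Rpl32 peaked in the same library, with 1104, 1580 and 5055 against 1752, 2249 and 1767. Rpl10a had 104, 400 and 357 against 389, 479 and 536, with Col6a1+ replicate 1 the low library, and its log2 fold change of -0.91 (SE 0.47) was -0.30 without it. None of these 5 genes passed the test (smallest limma adjusted p = 0.35, for Rps25).

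Col6a1+ replicate 1 was low for these genes and, to a smaller degree, for the whole table. Its median deviation from a gene's 6-library mean was -0.30 on the log2 scale for the ribosomal protein genes. It was -0.11 for all genes averaging 10 or more normalized counts, where the other libraries had 0.04 to 0.09. Col6a1+ replicate 1 was the lowest library for 39 of the 80 ribosomal protein genes averaging 10 or more normalized counts, and for 8 of them (Rps14, Rps15, Rps27, Rpl6, Rpl6l, Rpl10a, Rpl35a and Rplp0) it lay under 0.5 times the median of the other 5 libraries. Col6a1- replicate 1 was under that mark for Rpl6 alone. Col6a1+ replicate 1 also had the fewest genes above 0 in the whole table, 14530, where the other libraries had 18770 to 20511, and totals of normalized counts lay between 3039152 and 3425249 in all 6. Without it the difference in the ribosomal protein share was -0.641 points and the median log2 fold change of the genes -0.27. Whether the lower number of genes in this library plays a part in these values was not tested.

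**Figure D4:**
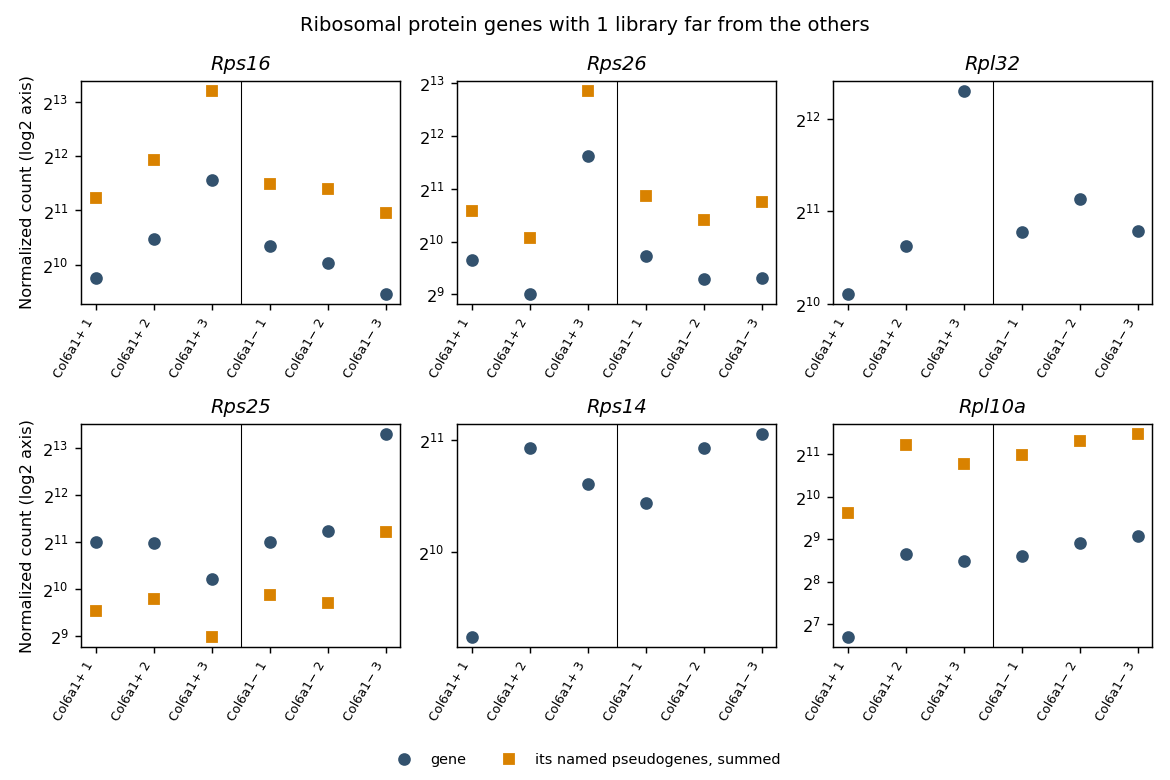
Normalized counts (log2 axis) in the 6 libraries of 6 ribosomal protein genes with 1 library far from the others (circles), and the sum of the rows named and annotated as their pseudogenes where that sum averages 10 or more (squares). Rps16, Rps26 and Rpl32 peak in Col6a1+ replicate 3 and Rps25 in Col6a1- replicate 3, Rps14 and Rpl10a dip in Col6a1+ replicate 1, and the plotted pseudogene sums have the same extreme library as their gene.

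Ribosomal protein genes have many processed copies in the genome, and reads of 3′ ends can match more than 1 of them, so that single-gene levels here are uncertain. The table held 263 rows named and annotated as pseudogenes of 58 of the 83 genes. Of these rows, 127 averaged 10 or more normalized counts, and for 25 genes the pseudogene sum exceeded the gene itself. Rows named as copies but annotated as protein-coding, among them Rpl9-ps6 and Rpl10-ps3, were left out, so 25 is a lower bound. For 3 genes with 1 high library the sum of the copies was highest in the same library. The copies of Rps16 held 9388 normalized counts in Col6a1+ replicate 3 and 1972 to 3909 in the other 5 libraries, those of Rps26 7390 against 1080 to 1852, and those of Rps25 2384 in Col6a1- replicate 3 against 509 to 935.

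Over all copies annotated as pseudogenes the share of normalized counts was 2.26 ± 0.451% in Col6a1+ and 2.60 ± 0.0644% in Col6a1- CAFs (SD, n = 3 each), with overlap (exact permutation p = 0.4). Genes and these copies together held 5.14 ± 0.584% and 6.23 ± 0.0771%, a difference of -1.09 points without overlap (exact permutation p = 0.1). With each gene summed with these copies, a setting chosen after seeing the data, limma again called 0 of the 81. The median log2 fold change was -0.34, with 8 of the 81 lower at an unadjusted p under 0.05. In the main fit 9.4% of all tested genes were lower at that threshold, so 8 is not set apart from the table.

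The genes also host small RNAs in their introns, and 29 of them contain 47 annotated features with at least 10 normalized counts on the same strand, 41 of them snoRNAs. For 7 host genes such a feature carried the count of the host itself to within 0.02 of a ratio of 1 in every library. Snora33, in Rps12, had 2740, 1921, 4425, 3916, 3461 and 3105 normalized counts in the 6 libraries, the same as Rps12 in each. Snord72 equalled Rpl37 in all 6 libraries too, with 220 to 343 in Col6a1+ and 323 to 379 in Col6a1- CAFs. For 3 further hosts, among them Rpl10 and Rpl13, the feature held 0.5 times the host's count to within 0.02. Host and guest rows are therefore not separate measurements, and the levels of different ribosomal protein genes were not ranked.

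Members restricted to other tissues were not detectable. Rpl10l, a testis copy of Rpl10, and Rpl39l were at 0 in all 6 libraries, where 0 allows up to 3 counts. Rpl3l, the form of striated muscle, had 0, 0 and 1 normalized counts in Col6a1+ and 0, 2 and 0 in Col6a1- CAFs, at or under that floor. Rps27l, a p53-induced relative of Rps27, was expressed, with 327, 180 and 141 against 220, 188 and 194 and full overlap of the groups (log2 fold change 0.02, SE 0.37, with a sign that changed with the scaling and with single libraries).

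Ribosomal proteins whose names fall outside the choice were looked at beside the members. Rps3a1, the small subunit gene, had 2708, 1691 and 1303 normalized counts in Col6a1+ and 2519, 1936 and 1808 in Col6a1- CAFs, with overlap. Rpl36al and Rpl22l1, close copies of Rpl36a and Rpl22, had 976, 676 and 622 against 1379, 1315 and 1025, and 140, 297 and 210 against 578, 387 and 333, both without overlap. None of these 3 passed the test (smallest limma adjusted p = 0.17, for Rpl22l1). Adding the ribosomal proteins outside the name choice to the share gave 3.00 ± 0.159% and 3.79 ± 0.0649% (SD, n = 3 each), a difference of -0.79 points.

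Other genes of the translation machinery were read from lists of known function. Of all tested genes, 58.8% had a log2 fold change below 0, and 9.4% were lower and 6.63% higher at an unadjusted p under 0.05. Of 20 further TOP mRNAs, which include elongation factors and Pabpc1, 0 were called in either direction by limma, 17 had a log2 fold change below 0 and the median was -0.49. At an unadjusted p under 0.05, 2 of them were lower (10%), Nap1l1 and Btf3, and 0 higher. Of 37 initiation factors 1 was called, Eif1b, which was higher in Col6a1+ CAFs, with 765 ± 72.5 against 266 ± 24.8 normalized counts (SD, n = 3 each, log2 fold change 1.52, SE 0.27, limma adjusted p = 0.011, and 0.0712 with the replicate block). This 1 call is 2.7% of the list, where 2.66% of all tested genes were called higher. At an unadjusted p under 0.05, 3 initiation factors were lower (8.11%) and 1 higher. The median of the initiation factors was -0.38, with 27 below 0.

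Of 61 measured genes of ribosome biogenesis, the factors that make and process ribosomal RNA, 0 were called, 43 were below 0 and the median log2 fold change was -0.25. Of 78 mitochondrial ribosomal proteins, which belong to the other ribosome of the cell, 0 were called, 58 were below 0 and the median was -0.42. Of 20 genes of the mTOR and MYC control of ribosome synthesis 0 were called and the median was -0.17. At an unadjusted p under 0.05 the counts of lower and higher genes were 3 and 0 for biogenesis, 6 and 1 for the mitochondrial ribosome, and 1 and 0 for the mTOR and MYC list. The lower genes were 4.92, 7.69 and 5% of these lists, each less than the 9.4% of all tested genes. With limma-voom 0 genes of the TOP, biogenesis and mTOR and MYC lists were called, and 1 mitochondrial ribosomal protein, Mrps34, was lower. Of 12 snoRNA host genes that do not encode ribosomal proteins 0 were called, 10 were below 0 and the median was -0.78, with 2 (16.7%) lower at an unadjusted p under 0.05. Snhg1, the 1 gene of the list called lower by limma-voom, had the smallest p (452, 628 and 499 against 1433, 873 and 1029 normalized counts, limma adjusted p = 0.0734).

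**Figure D5:**
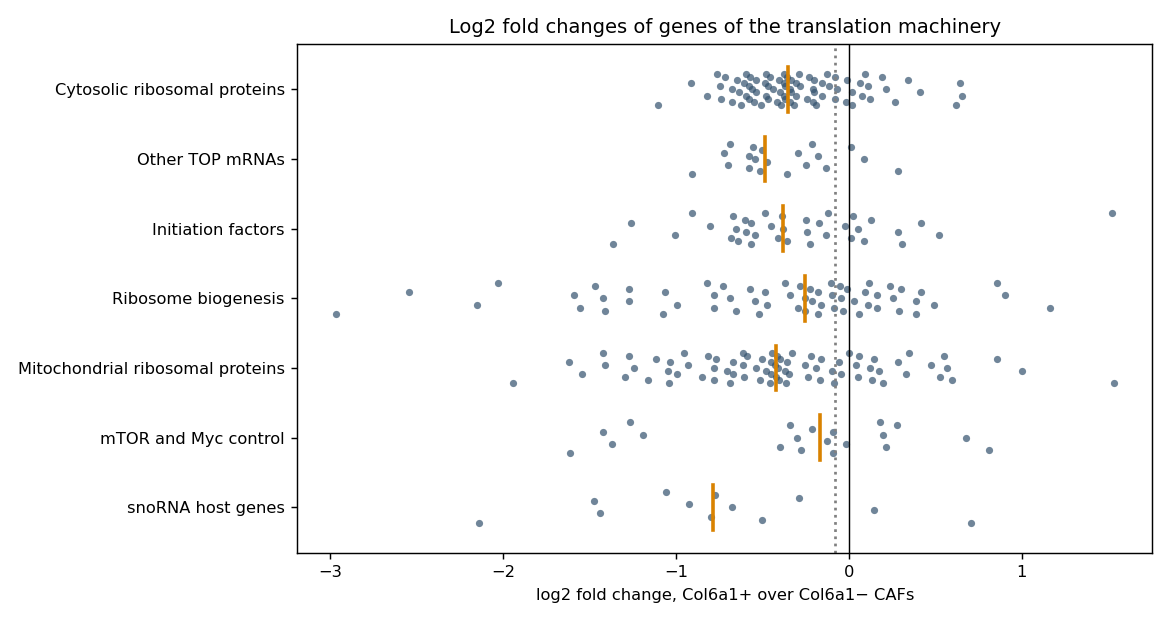
Log2 fold change, Col6a1+ over Col6a1- CAFs, of each measured gene (points) in 7 lists of the translation machinery, with the list's median (orange bar) and the median of all genes averaging 100 or more normalized counts (dotted, -0.08). Every list's median lies to the left of the dotted line, but some lists also hold genes averaging less than 100. The median was -0.15 for all genes averaging 10 or more and -0.27 for all tested genes. The mTOR and MYC list (-0.17) and biogenesis (-0.25) are not below the latter. The cytosolic ribosomal proteins and the other TOP mRNAs form the narrowest clouds, and their median SE (0.30 and 0.31) is also the lowest of the 7 lists.

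Markers of other cells moved with the same groups. Of 15 epithelial markers 11 fell in Col6a1+ CAFs and 0 rose, their summed level was 6566 to 8930 normalized counts in Col6a1+ and 28282 to 47448 in Col6a1- libraries, and none was at 0. Epcam, whose protein was used to exclude cells in the sort, had 1074, 884 and 615 normalized counts in Col6a1+ and 3107, 4129 and 3730 in Col6a1- CAFs. Ptprc (CD45) and Pecam1 (CD31) lay at 0 to 8 and 0 to 64 over the 6 libraries. Over the 16 rows of the immune markers 1 fell (S100a8), with sums of 93 to 120 against 428 to 790. Of the pericyte and smooth muscle markers 14 of 15 rose (63186 to 119420 against 2854 to 5945), and of the pan-fibroblast markers 8 of 15 rose (57188 to 77668 against 12007 to 21552), so that fibroblast markers were present in both groups at unequal levels. Of 19 proliferation markers 0 were called, 3 were lower at an unadjusted p under 0.05, and sums were 1214 to 1574 against 1738 to 3378. Of 15 endothelial markers 2 rose (Esam and Tie1) and 1 fell (Prox1). Most of that list went down, with 12 log2 fold changes below 0 and a median of -1.34. Of 15 dissociation stress genes 2 rose (Hspa1a and Hspa1b). Of these 15, 11 had a log2 fold change above 0, sums were 53183 to 67820 against 34489 to 40366, and limma-voom called 4 higher and 1 lower. Of erythroid and glial markers 0 of 6 and 0 of 10 were called (limma, with 0 erythroid and 2 glial markers at an unadjusted p under 0.05, and 0 and 1 called by limma-voom). Of all tested genes 2.66% were called higher and 1.96% lower by limma. With the replicate block 0 of any of these markers were called at an adjusted p under 0.05, as 0 genes of the table were, while 13 of 15 epithelial markers were lower and 14 of 15 pericyte and smooth muscle markers higher at an unadjusted p under 0.05. That loss of calls also depends on the filter, since the block over genes averaging 10 or more did call genes of the table. The part of these cells in the ribosomal protein share was not tested.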

How the data were processed

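The data are 3′ mRNA libraries (QuantSeq, Ion Proton) of total RNA from sorted cells, 3 of Col6a1+ and 3 of Col6a1- CAFs, grouped and numbered by their labels. The authors mapped reads to mm10 with TopHat2 and Bowtie2, counted them per gene with GenomicRanges and normalized them with DESeq through metaseqR. The deposited values used here are log2(normalized count + 1) for 49548 genes, and 100% of them are whole normalized counts within 0.001. The GC content in the deposited table is a fraction of bases and entered no fit. Left out were 6 other columns with values per sample, and the authors' p-values, false discovery rates, fold changes and group means. Whether counting used strand is not given in the sources used here.

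The 26402 genes whose normalized counts summed to 1 or more were fitted with limma 3.58.1 in R 4.3.3, with eBayes and a mean-variance trend (degrees of freedom: 6.48 prior, 4 residual). Adjusted p-values are Benjamini-Hochberg values over these genes, and calls are at an adjusted p under 0.05. Fold changes are on the log2(normalized count + 1) scale, which understates those of low genes. Shares were compared by exact permutation over libraries with Python 3.11.15 and SciPy 1.17.1. In simulated data of 25076 genes, the same fit called 192 of 200 genes changed 8-fold and 1 unchanged gene.

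The genes and lists were chosen with earlier results of these data known. Named genes are the 5 with the lowest and the 5 with the highest log2 fold change, genes restricted to other tissues or with further roles, and those of smallest p in other lists. Rpl7, Rps10, Rpl39, Rpl32 and the genes outside the name rule were named after their values were seen. Deviations of same-numbered libraries from their group means correlated at 0.245, 0.125 and 0.144 over 13515 genes (other pairs -0.245 to 0.15). Col6a1+ replicate 2 correlated more with Col6a1- replicate 3 (0.15) than with its own number (0.125). The numbers were taken to pair the libraries, but these values do not settle the pairing, and the labels do not state it. Scaling, filters, pseudocount, limma-voom, a replicate block and each library left out were tried as alternatives. Replicates are pools of tumors from several mice, and p-values measure the spread between these pools. Some single genes of these sets are not reported here, while counts and sums include them.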

Additional observations from a re-analysis of the deposited data

How the results depend on the processing

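Of the settings tried, none called a ribosomal protein gene higher, and 1 called a gene lower: with genes averaging 100 or more normalized counts, chosen after seeing the data, the count was 1 (Rps19, adjusted p = 0.0487). The median log2 fold change of these genes stayed between -0.42 and -0.27, and the difference in their share between -0.641 and -0.803 points with 1 library left out, where no test was made. With the number as a block, the paired share difference had an exact sign-flip p of 0.25, the smallest that 3 pairs allow. The number of genes called in the whole table, 1220, moved far more: 28 with no filter, 0 with the replicate block, 1852 with the block over genes averaging 10 or more, 3880 at an unadjusted p under 0.05 with a log2 fold change over 1 either way, and 12 to 895 with 1 library left out (12 without Col6a1- replicate 1, 116 and 232 without replicates 3 and 2, 328, 510 and 895 without Col6a1+ replicates 3, 2 and 1). The cause was not tested. Among the genes picked by the naming rule, none called, 4 changed sign. Rps27l went to -0.037 with library size alone, -0.037 with limma-voom, and -0.33, -0.03 and -0.006 without Col6a1+ replicate 1, Col6a1- replicate 2 and Col6a1- replicate 3. Rpl38 went to 0.013 with upper quartile scaling, and 0.28 and 0.14 without Col6a1+ replicate 1 and Col6a1- replicate 2 (from -0.25 to 0.28 with 1 library left out). Rps26 went to -0.12 without Col6a1+ replicate 3 (-0.12 to 1.18 over the libraries), and Rpl3l to 0.33 without Col6a1- replicate 2 (-0.53 to 0.33). Other genes in the text, among them Rpl32 (-0.53 to 0.57), Rps15 (-0.44 to 0.41) and Rpl6 (-0.39 to 0.48), also changed sign with 1 library left out. The block with the main filter also ended the calls of Eif1b and of the cell type markers at an adjusted p under 0.05, with 13 of 15 epithelial and 14 of 15 pericyte and smooth muscle markers still past an unadjusted p of 0.05. Since the block over genes averaging 10 or more called 1852 genes, the loss of calls depends on the filter for low genes as well as on the block. A share without mitochondrially encoded genes was not run, since the rows used here hold none. At this depth and with 3 libraries a group, the 95% interval of the log2 fold change includes 0 for all but 6 of the 81 genes.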
